A study of Mus musculus with 10 samples.

Results

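Notch receptors, their ligands, the nuclear factor Rbpj and their Hes and Hey target genes were followed in mouse cortical cultures with and without depolarization by KCl. The 10 genes were Notch1, Notch2, Notch3, Dll1, Jag1, Rbpj, Hes1, Hes5, Hes6 and Hey1. Every counted transcript annotated to them was used, which gave 12 of the 22534 transcripts in the counts: 3 of Rbpj and 1 of each of the others. The genes were selected on their values in the same comparison of KCl and untreated cultures, in RNAseq, in ribosome footprinting (RF) and in their ratio. The differences of the 10 genes between those cultures are therefore a description and carry no test.

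Notch signalling passes between touching cells. Delta and Jagged ligands on a cell bind Notch receptors on its neighbour, the receptor is cleaved by ADAM proteases and then by gamma-secretase, and its freed intracellular part joins Rbpj on DNA and switches genes on. The best known of these genes encode the Hes and Hey basic helix-loop-helix repressors, which hold back proneural genes and keep radial glia and other neural progenitors undifferentiated.

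Cortical cells of FVB mice at P0 came from pups of both sexes and were grown for 7 days into a mixture of neurons and glia. Cultures 1, 2 and 3 were left untreated, and cultures 4 and 5 were brought to 55 mM KCl for 3 h. All 5 cultures received cycloheximide, which stalls ribosomes, shortly before lysis. RNAseq measured transcript abundance over the whole transcript, RF measured ribosome-protected fragments on the coding sequence (CDS), and translation efficiency (TE) is RF over RNAseq. The authors removed 1 more KCl replicate for its small library. The labels do not tie the cultures to separate litters, so p-values measure the spread between these cultures only.

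The 5 RNAseq libraries held 3056286 to 3629959 counted reads and the 5 RF libraries 1463654 to 7719915, with untreated culture 3 and KCl culture 4 the shallowest for RF. Levels are given within a gene as normalized CPM, reads scaled to CPM by library size and TMM factor within the assay, and between genes as RPKM, which also divides by length. A transcript was called measured when 2 or more cultures each had both its RNAseq and its RF RPKM at 10 or above. This held for 7262 transcripts of 4370 genes, and for 6 of the 12 transcripts described here: Notch1, Notch2, Hes1, Hes5, Hes6 and Hey1. Hes1 reached the filter only in the 2 KCl cultures and Hes5 only in untreated cultures 2 and 3, so that for both the filter itself asked for a high value in 1 group. For Notch3, Dll1, Jag1 and Rbpj, fold changes come from a fit of all transcripts with at least 1 read.

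The labels call the cultures neurons, and markers of several cell types were read in them. The summed RNAseq level of 9 neuron markers with counts was 549 to 842 normalized CPM in untreated and 702 to 707 in KCl cultures. The 8 astrocyte markers with counts summed to 13315 to 14132 in untreated and 11272 to 11542 in KCl cultures, and the 7 radial glia and progenitor markers to 5244 to 5326 and 5078 to 5363. Astrocyte sums thus lay lower in both KCl cultures, while neuron and radial glia sums overlapped. The radial glia sum was carried by Vim, with 4184 to 4236 in untreated and 4299 to 4350 in KCl cultures. Oligodendrocyte lineage markers summed to 1570 to 1687 and 1501 to 1503, microglial markers to 264 to 276 and 214 to 257, and endothelial markers to 46.0 to 47.1 and 39.9 to 41.0. Mural and fibroblast markers summed to 626 to 735 and 503 to 578, and markers of dividing cells to 203 to 231 and 179 to 188. Like the astrocyte sums, those of every list from the oligodendrocyte lineage to dividing cells lay lower in both KCl cultures. Dcx, Slc17a6, Glul, Tyrobp, Col1a2 and Ccnb1 had no transcript in the counts, and no other marker of these lists was at 0 over all libraries. In bulk RNA, fewer cells of a type and less RNA per cell cannot be told apart, and the part of cell composition in the values below was not tested.

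After 3 h of KCl the 2 best known Hes targets differed from untreated cultures in opposite directions. Hes5 was 6.08-fold lower and Hes1 2.76-fold higher in RNAseq, and both differences were of similar size in RF. Hey1, the most abundant of the 10 in untreated cultures, was 1.48-fold lower in RNAseq. The receptors Notch1 and Notch2 had log2 fold changes of 0.01 and -0.05 in RNAseq and 0.04 and -0.15 in RF. The log2 fold change of TE was -0.01 for Hes5 and 0.10 for Hes1.

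**Figure D1:**
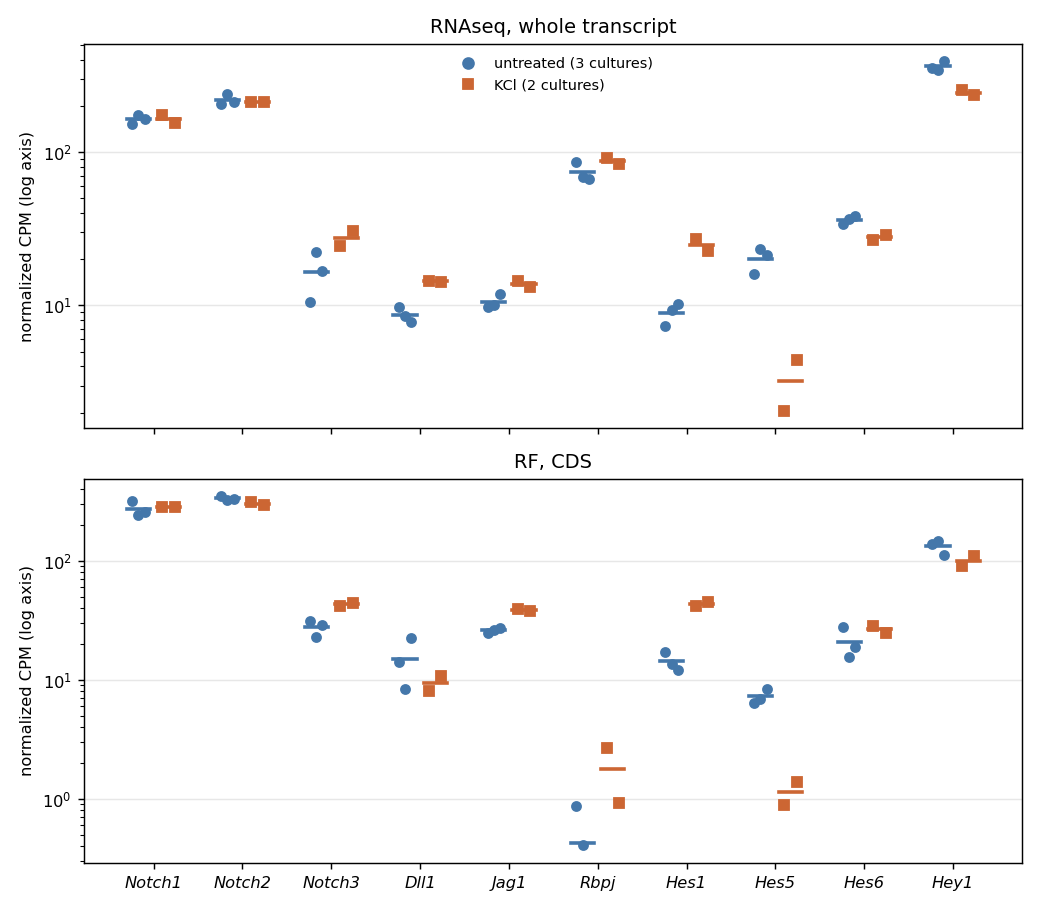
Normalized CPM (log axis) of the 10 genes in RNAseq, over the whole transcript, and in RF, over the CDS; circles are untreated cultures 1 to 3, squares KCl cultures 4 and 5, and lines the group means. The KCl squares of Hes1 lie above and those of Hes5 below all untreated circles in both assays. Rbpj had 0 footprints in untreated culture 3, which has no point on the log axis.

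In untreated cultures the 10 genes covered a wide range of RNAseq levels. Hey1 was highest at 119 ± 8.77 RPKM (SD, n = 3), against a median of 21.5 over all measured transcripts. Hes6 followed at 21.5 ± 1.42, Notch2 at 16.6 ± 1.38, Notch1 at 13.7 ± 0.959, Hes5 at 12.6 ± 2.45 and Rbpj at 10.8 ± 1.53 RPKM. Hes1 stood at 4.87 ± 0.819, and Dll1, Notch3 and Jag1 at 1.93 ± 0.204, 1.64 ± 0.586 and 1.50 ± 0.171 RPKM. The ranges of Notch1 and Hes5, of Hes5 and Rbpj, of Dll1 and Notch3 and of Notch3 and Jag1 overlapped, so these neighbours did not differ beyond their spread. The other neighbours in the order did not overlap.

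The order in RF was similar at the top, with Notch2 and Notch1 ahead of Hes6. Hey1 had 109 ± 16.7 RPKM (SD, n = 3), Notch2 33.4 ± 1.60, Notch1 26.8 ± 4.01, Hes6 23.0 ± 7.14 and Hes1 12.6 ± 2.37. Hes5 had 10.7 ± 1.39, Jag1 5.28 ± 0.215, Dll1 5.10 ± 2.35 and Notch3 2.95 ± 0.446 RPKM. Ranges overlapped between Notch1 and Hes6, between Hes1 and Hes5, between Jag1 and Dll1 and between Dll1 and Notch3. Untreated TE, the ratio of these RPKM, was 3.55 ± 0.298 for Jag1, 2.71 ± 1.47 for Dll1, 2.70 ± 1.00 for Hes1, 2.05 ± 1.08 for Notch3, 2.02 ± 0.243 for Notch2 and 1.97 ± 0.440 for Notch1. It was 1.08 ± 0.410 for Hes6, 0.930 ± 0.201 for Hey1 and 0.865 ± 0.137 for Hes5, below the median of 1.69 over measured transcripts. On this measure ligands and receptors had the higher and 3 of the 4 repressors the lower untreated TE. Ranges overlapped between every pair of neighbours except Notch1 with Hes6 and Hes5 with Rbpj. The ratio divides CDS footprints by RNAseq reads of the whole transcript, which fell on the CDS to unlike degrees. Over the 5 cultures the CDS held 11.0% of them for Hes6, 24.7% for Hey1 and 0% for Hes5. It held 74.3% for Notch1, 53.3% for Notch2 and 18.6% for Dll1. Untreated TE from RNAseq reads of the CDS was not computed, so the order is not read as a difference between these classes.

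Jag1 (chr2:137081456-137116644, minus strand, GRCm38) encodes a membrane-bound ligand of the Jagged class. Its RNAseq level was 9.73, 10.1 and 11.9 normalized CPM in untreated cultures 1, 2 and 3 and 14.4 and 13.2 in KCl cultures 4 and 5. Its RF level was 24.6, 26.2 and 27.2 in untreated and 39.1 and 38.0 in KCl cultures. Both KCl cultures lay above all untreated cultures in both assays. Its log2 fold change was 0.44 (SE 0.35) in RNAseq, 0.65 (SE 0.21) in RF and 0.19 (SE 0.40) in TE, from 25 to 36 RNAseq reads and 29 to 142 CDS footprints per library. RNAseq reads on the CDS numbered 19, 18 and 24 in untreated and 17 and 20 in KCl cultures, where the groups overlapped. Those on the 3′UTR numbered 3, 7 and 5 in untreated and 16 and 12 in KCl cultures. The higher RNAseq counts of Jag1 in KCl cultures thus lay mostly on the 3′UTR.

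Dll1 (chr17:15367354-15375976, minus strand) encodes a ligand of the Delta class. RNAseq gave 9.73, 8.58 and 7.77 normalized CPM in untreated and 14.4 and 14.3 in KCl cultures, with both KCl cultures above the rest. RF gave 14.0, 8.33 and 22.5 in untreated and 8.00 and 10.7 in KCl cultures, where the groups overlapped. Log2 fold changes were 0.78 (SE 0.36) in RNAseq, -0.36 (SE 0.33) in RF and -1.21 (SE 0.51) in TE. TE was 2.26, 1.52 and 4.36 in untreated cultures and 0.856 and 1.13 in KCl cultures, so both KCl values were below the untreated ones. These ratios rest on 19 to 39 RNAseq reads and 9 to 81 footprints per library, and the highest untreated value came from the shallow untreated culture 3.

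The 2 large receptors measured here, Notch1 and Notch2, are single-pass membrane proteins that carry the signal from the surface to the nucleus. Notch1 (chr2:26457903-26503822, minus strand) had RNAseq levels of 153, 174 and 165 normalized CPM in untreated and 175 and 156 in KCl cultures. Its RF levels were 319, 244 and 257 in untreated and 285 and 282 in KCl cultures. The groups overlapped in both assays, with a log2 fold change of 0.01 (SE 0.14) in RNAseq, 0.04 (SE 0.11) in RF and 0.05 (SE 0.19) in TE. Notch2 (chr3:98013538-98150361, plus strand) had RNAseq levels of 206, 240 and 213 in untreated and 212 and 213 in KCl cultures. Its RF levels were 349, 322 and 329 in untreated and 311 and 291 in KCl cultures. RNAseq values overlapped while both KCl cultures were lowest in RF, with a log2 fold change of -0.05 (SE 0.14) in RNAseq, -0.15 (SE 0.09) in RF and -0.10 (SE 0.18) in TE.

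Notch3 (chr17:32120820-32166852, minus strand), a receptor best known from the mural cells of vessels, was far less abundant. RNAseq gave 10.5, 22.2 and 16.8 normalized CPM in untreated and 24.2 and 30.4 in KCl cultures. RF gave 31.0, 22.8 and 29.0 in untreated and 41.8 and 44.1 in KCl cultures. Both KCl cultures were above all untreated cultures in both assays, although untreated culture 2 came close in RNAseq. The log2 fold change was 0.78 (SE 0.27) in RNAseq, 0.72 (SE 0.20) in RF and -0.10 (SE 0.35) in TE. The summed level of the mural and fibroblast markers, given above, was lower in KCl cultures. It was carried by the fibroblast gene Col1a1, with 395 to 467 normalized CPM in untreated and 321 to 360 in KCl cultures. The part of cell composition in the Notch3 values was not tested.

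Rbpj (chr5:53590214-53657362, plus strand) encodes the DNA-binding protein that all Notch receptors share. RNAseq gave 86.8, 68.7 and 66.6 normalized CPM in untreated and 91.2 and 83.6 in KCl cultures, where the groups overlapped, with a log2 fold change of 0.30 (SE 0.17). Its 3 transcripts carried the same 1011 reads on the 3′UTR over the 5 cultures, so they are not separate measurements. The transcript ENSMUST00000037618 had 1 RNAseq read on the CDS in all 5 cultures together, and the other 2 had 0. CDS footprints on it were 5, 2 and 0 in untreated and 3 and 2 in KCl cultures, and the other 2 transcripts had 0 in every library, where a count of 0 allows up to 3 footprints. Of the 14733 coding transcripts with at least 100 RNAseq reads, 557 (3.78%) had at most 1 on the CDS. With almost no read of either assay on its CDS, the RF and TE of Rbpj are not read as levels of translation. The authors aligned to transcripts with degenerate sequences removed, and the part of that step in the missing reads was not tested.

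Hes5 (chr4:154960923-154962371, plus strand, 3 exons) encodes a repressor that is used as a standard readout of Notch activity in neural progenitors. Its RNAseq level was 16.0, 23.4 and 21.3 normalized CPM in untreated cultures and 2.05 and 4.40 in KCl cultures. Its RF level was 6.41, 6.91 and 8.43 in untreated and 0.889 and 1.39 in KCl cultures. Both KCl cultures lay far below every untreated culture in both assays, and the groups did not overlap. The log2 fold change was -2.60 (SE 0.40) in RNAseq and -2.46 (SE 0.60) in RF. These were among the lowest of all measured transcripts, at percentiles 0.0689 and 0.151. Hes5 was selected on this comparison and passed the filter only in untreated cultures, so a low rank was partly built in.

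Few molecules stand behind the KCl values of Hes5. RNAseq counted 41, 60 and 52 reads in untreated and 5 and 12 in KCl cultures, and RF counted 37, 34 and 9 footprints in untreated and 1 and 3 in KCl cultures. Summed over cultures, the footprint ratio of KCl to untreated was 0.179, with an exact 95% interval of 0.0477 to 0.477 that covers counting error only. TE was 0.968, 0.709 and 0.918 in untreated and 1.02 and 0.739 in KCl cultures, with overlapping groups and a log2 fold change of -0.01 (SE 0.30). Leaving out each culture in turn gave -3.27 to -2.19 in RNAseq and -2.90 to -2.27 in RF.

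The promoter of Hes5 is shown because Rbpj acts through the core motif TGGGAA, and the RNAseq and RF levels of Hes5 moved most among the 10 genes. RefSeq promoter windows of GRCm38.p6, from 250 bases before to 50 after each start, were searched on both strands. Windows were found for 8 of the 10 genes, Hes1 and Hey1 not being among them. TGGGAA occurred 2 times in the window of Hes5 and 2 times in a window of Rbpj, and in no window of the other 6 genes. Of all 32851 windows of this length, 25.6% held it, so its presence is common. Each site is printed 5′ to 3′ on the plus strand, and the capitals mark the core or its reverse complement TTCCCA.
Hes5, chr4:154960687-154960712: ggcgagcgcgTTCCCAcagcccggac
Hes5, chr4:154960831-154960856: ccgccgagtgTGGGAAcggccgcggc
Rbpj, chr5:53590187-53590212: tgaaaaaggcTGGGAAcccgcggcga
Rbpj, chr5:53590271-53590296: cgctcgcattTTCCCAggacccctcc

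A pair of cores head to head, 15 to 17 bases apart, was in none of these windows and in 0.0183% of all windows. Letters bound by Hes and Hey proteins, CACGCG, were found in windows of Jag1, Notch2 and Dll1 and in 9.27% of all windows. The N-box letters CACNAG were found in windows of Hes6, Notch1, Notch2, Notch3 and Dll1 and in 42.5% of all windows. CACGTG, in 7.15% of all windows, and the cyclic AMP response element TGACGTCA, in 1.79%, were not among the letters of the windows of these genes. The matches are descriptions of sequence, and binding was not measured.

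Hes1 (chr16:30065340-30067796, plus strand, 4 exons) encodes a related repressor whose own transcript is short-lived. Its RNAseq level was 7.39, 9.36 and 10.2 normalized CPM in untreated and 27.1 and 22.7 in KCl cultures. Its RF level was 17.1, 13.6 and 12.2 in untreated and 41.8 and 45.5 in KCl cultures. Both KCl cultures lay above all untreated cultures in both assays, by more than the whole range of the untreated ones. The log2 fold change was 1.46 (SE 0.30) in RNAseq and 1.55 (SE 0.21) in RF, at percentiles 97.9 and 98.0 of the measured transcripts. Hes1 was selected on this comparison and passed the filter only in KCl cultures, so a high rank was partly built in. TE overlapped between groups, with a log2 fold change of 0.10 (SE 0.39). RNAseq counted 19 to 25 reads in untreated and 62 to 66 in KCl libraries.

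Hey1 (chr3:8663359-8667256, minus strand) encodes a repressor of the Hey subfamily. Its RNAseq level was 351, 345 and 390 normalized CPM in untreated and 255 and 234 in KCl cultures. Its RF level was 137, 147 and 111 in untreated and 89.8 and 110 in KCl cultures. The KCl cultures lay below all untreated ones in both assays, clearly in RNAseq and narrowly in RF, where KCl culture 5 was next to untreated culture 3. Hey1 had a log2 fold change of -0.57 (SE 0.13) in RNAseq, -0.41 (SE 0.14) in RF and 0.16 (SE 0.19) in TE. With RNAseq reads of the CDS only, an alternative chosen after the counts were seen, its RNAseq log2 fold change was -0.37 and no longer called. Without KCl culture 4, its RF log2 fold change was -0.29 and no longer called.

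Hes6 (chr1:91411483-91413222, minus strand) encodes an unusual family member that opposes Hes1 and favours neuronal differentiation. Its RNAseq level was 33.8, 36.7 and 38.0 normalized CPM in untreated and 26.7 and 29.0 in KCl cultures. Its RF level was 27.9, 15.6 and 18.7 in untreated and 28.5 and 24.6 in KCl cultures. The KCl cultures were lowest in RNAseq, while RF overlapped because untreated culture 1 was as high as the KCl cultures. The log2 fold change was -0.38 (SE 0.22) in RNAseq, 0.28 (SE 0.26) in RF and 0.70 (SE 0.35) in TE, none of them called. Most RNAseq reads of Hes6 fell on the 3′UTR. With RNAseq reads of the CDS only, its log2 fold change turned to 0.21 in RNAseq and shrank to 0.10 in TE.

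**Figure D2:**
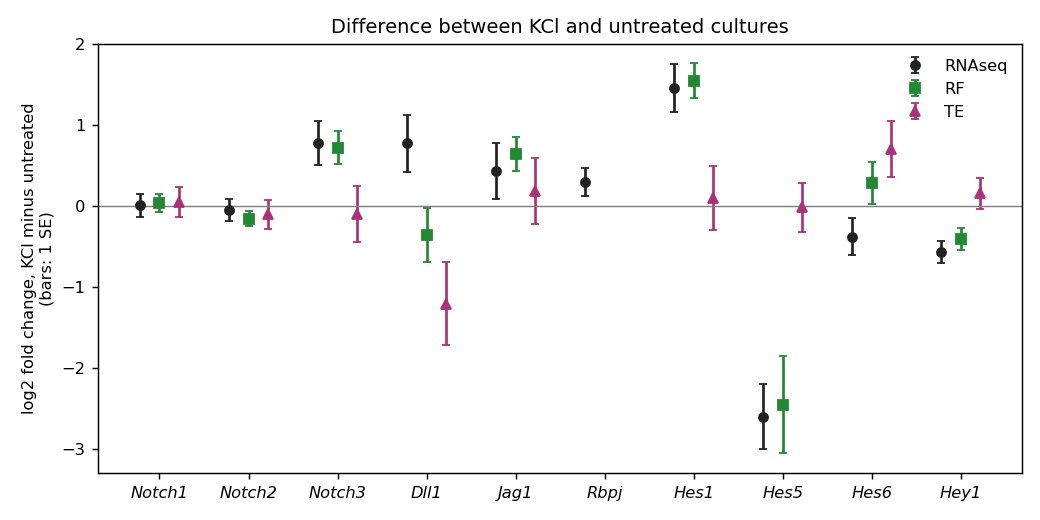
Log2 fold change of KCl over untreated cultures for the 10 genes in RNAseq, RF and TE, with bars of 1 SE; RF and TE of Rbpj are left out because almost no footprint fell on its CDS. Hes5 (-2.60 and -2.46) and Hes1 (1.46 and 1.55) lie farthest from 0 in RNAseq and RF, with TE near 0, whereas Dll1 lies at -1.21 in TE.

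Calls are stated against all transcripts tested, and nothing is read from them, since the genes were selected on this comparison. At an adjusted p under 0.05 in edgeR, 1 of the 6 measured transcripts was higher in RNAseq (Hes1) and 2 were lower (Hes5 and Hey1), where 17.9% of the 7262 measured transcripts were higher and 15.1% lower. RF called the same 3 genes in the same directions, where 20.8% of all measured transcripts were higher and 20.1% lower. TE called 0 of the 6 in edgeR and 0 in DESeq2, where 1.53% of measured transcripts were higher and 4.27% lower in edgeR. At an unadjusted p under 0.05, edgeR gave 1 of the 6 and DESeq2 gave 0, with no share of all transcripts at that threshold to set beside them.

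Without a filter beyond 1 read, all 12 transcripts could be fitted in RNAseq and 10 in RF. RNAseq then called Notch3 and Hes1 higher and Hes5 and Hey1 lower, where 10.4% of 21950 transcripts were higher and 8.62% lower. RF called Notch3, Jag1 and Hes1 higher and Hes5 and Hey1 lower, where 13.4% of 20864 were higher and 12.6% lower. TE called 0 of 12 in edgeR at an adjusted p under 0.05, where 0.460% of 22374 were higher and 1.30% lower. At an unadjusted p under 0.05 edgeR gave 2, again with no share of all transcripts beside it. Some of these calls changed when an untreated culture was left out. In RNAseq, Notch3 was lost without untreated culture 1 or untreated culture 3. In RF, Hey1 was lost without untreated culture 1 or untreated culture 2, and Hes6 was gained without untreated culture 1. Leaving out a KCl culture lost calls of Notch3 and Hey1 in RNAseq and of Notch3, Jag1, Hes5 and Hey1 in RF. Such a fit holds 1 KCl library, and among measured transcripts it called fewer of all transcripts in each assay. These losses are therefore not read as a trait of these genes.

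The region of the transcript that carried the reads differed among these genes. Over the 5 cultures, 74.3% of the RNAseq reads of Notch1 and 53.3% of those of Notch2 were on the CDS, against a median of 44.4% over measured transcripts with at least 100 RNAseq reads. The share was 29.6% for Hes1, 24.7% for Hey1, 11.0% for Hes6 and 0% for Hes5. All 170 RNAseq reads of Hes5 were on the 3′UTR (134) or on a further region (36) that the sources used here do not name. Of the 7254 measured transcripts with at least 100 RNAseq reads, 15 (0.207%) had none on the CDS. RF did count 84 footprints on the CDS of Hes5, whereas its RNAseq fold change rests on reads outside the CDS. Why no RNAseq read was counted there was not tested.

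For the 6 measured transcripts, most footprints lay on the CDS. The share of RF reads on the 5′UTR was 1.96% for Notch1, 1.54% for Notch2, 3.37% for Hes6 and 7.49% for Hey1, around the median of 4.14% over measured transcripts. Hes1 had 19.6% of its RF reads there over the 5 cultures, at percentile 87.1. By culture the share varied widely, with 9.17%, 34.3% and 40.9% in untreated and 7.84% and 17.6% in KCl cultures, from 4 to 35 reads each. The 5′UTR of Hes1, 251 bases long, holds 1 upstream AUG. Hey1 has 3 upstream AUGs in its 5′UTR, Hes5 and Hes6 have 0, and 50.1% of measured transcripts have any. Among the transcripts that did not pass the filter, the share on the 5′UTR was 23.3% for Dll1, and the Rbpj transcript ENSMUST00000113865 had 34 of its 38 RF reads there.

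**Figure D3:**
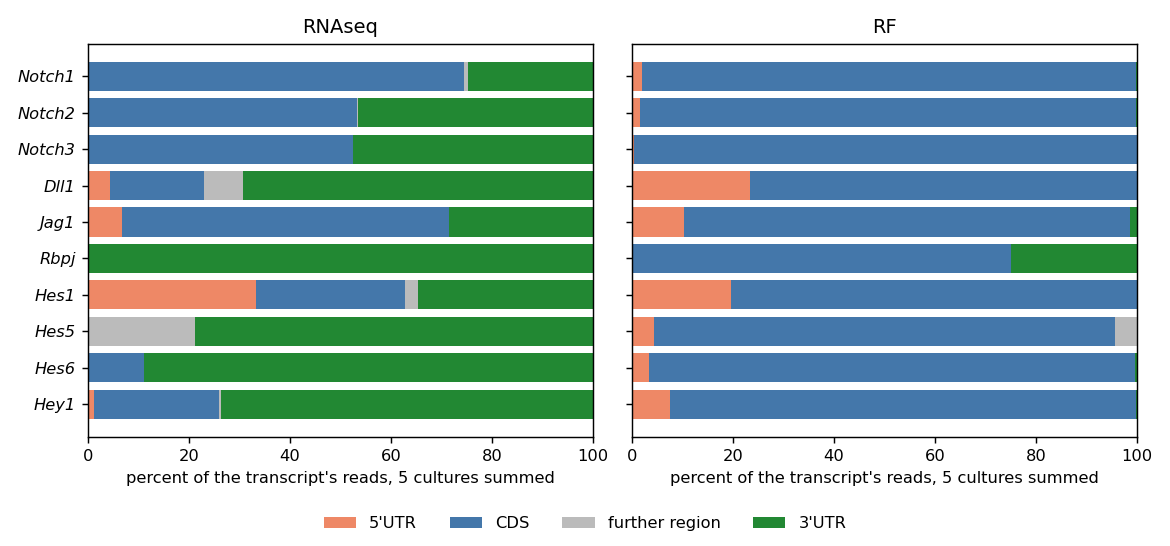
Percent of each transcript's reads on the 5′UTR, the CDS, a further unnamed region and the 3′UTR, summed over the 5 cultures, in RNAseq and RF. RNAseq bars of Hes5 and Rbpj show no visible CDS part, while 91.3% of the RF reads of Hes5 are on the CDS.

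The wider pathway was read from a list of 84 other genes, of which 35 were measured. In RNAseq 6 were higher (17.1%), 14 lower (40.0%) and 15 not called, where 17.9% of all measured transcripts were higher and 15.1% lower. In RF 9 were higher (25.7%), 15 lower (42.9%) and 11 not called, where 20.8% of all were higher and 20.1% lower. TE called 3 (8.57%), each of them lower, where 4.27% of all were lower. The counts of single groups below were not tested against these shares. The median log2 fold change of the 35 was -0.23 in RNAseq and -0.51 in RF, where the medians of all measured transcripts were -0.0045 and -0.010. Of the 35, 14 passed the filter through cultures of 1 group only, so a part of these differences was built into the list. Of the genes named below, these were Lfng, Numb, Furin, Mib1, Dtx4, Kat2a, Tle4, Kdm5a and Nes, for which the filter asked for a high value in 1 group. Their calls given below were kept in the fit with no filter beyond 1 read, except that of Mib1. All values for these genes are from edgeR with Benjamini-Hochberg adjusted p.

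Upstream of the receptor signal, the clearest differences were in modifiers. Lfng, a Fringe glycosyltransferase that alters which ligands Notch responds to, had 35.4, 63.2 and 47.8 normalized CPM in untreated and 9.86 and 15.0 in KCl RNAseq libraries. It fell by 1.96 on the log2 scale (SE 0.27, adjusted p = 2.8e-07) and by 1.65 in RF (adjusted p = 3.3e-06). Numb, an endocytic adaptor that antagonizes Notch, had 32.3, 41.7 and 37.2 in untreated and 94.9 and 90.9 in KCl libraries. It rose by 1.32 (SE 0.18, adjusted p = 2.3e-07) in RNAseq and 1.24 (adjusted p = 3.7e-07) in RF. Of 10 cleavage genes 3 were measured, with 0 higher and 1 lower in RNAseq. Furin, the protease that trims the receptor precursor, was not called there, with a log2 fold change of 0.27 (adjusted p = 0.27). It had -1.18 (adjusted p = 3.6e-04) in RF and -1.49 (adjusted p = 2.3e-04) in TE. Without KCl culture 5 both calls of Furin were lost, at -0.70 in RF and -0.78 in TE. Both measured glycosylation genes were lower in RNAseq, and of the 5 measured endocytosis and ubiquitin ligase genes 1 was higher and 2, Mib1 and Dtx4, were lower. Of all measured transcripts, 17.9% were higher and 15.1% lower in RNAseq. The call of Mib1 was lost with DESeq2, filterByExpr, no filter, and without untreated culture 1 or KCl culture 4 or 5, and that of Dtx4 without KCl culture 5.

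In the nucleus, corepressors and coactivators included genes of both directions. Of 10 measured corepressors, 3 were higher and 1 was lower in RNAseq, where 17.9% of all measured transcripts were higher and 15.1% lower. The lower gene, Ctbp1, lost its call with filterByExpr, with no filter, and without untreated culture 2 or 3 or KCl culture 4 or 5. Tle4 and Tle3, Groucho corepressors that Hes proteins recruit, rose by 1.19 (adjusted p = 7.6e-07) and 0.74 (adjusted p = 2.8e-05), and Kdm5a, a histone demethylase, rose by 0.79 (adjusted p = 4.5e-05). Among coactivators, the acetyltransferase Ep300 rose by 0.83 (adjusted p = 8.7e-06), whereas Kat2a fell by 0.66 (adjusted p = 4.0e-03). In TE, Aes, a short Groucho protein named here after its values were seen, had -0.85 (adjusted p = 0.010). That call was lost with DESeq2 and without KCl culture 5.

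Among other target genes, 3 of 5 measured ones were lower in RNAseq, where 15.1% of all measured transcripts were. Sox9, a glial and progenitor transcription factor, had 421, 436 and 421 normalized CPM in untreated and 180 and 200 in KCl libraries, and fell by 1.16 (SE 0.13, adjusted p = 4.6e-09). Nes, which is also on the radial glia list above, fell by 0.98 (adjusted p = 2.0e-05) and the cyclin gene Ccnd1 by 0.59 (adjusted p = 3.6e-03, a call lost without KCl culture 5 at -0.51), while Myc rose by 0.94 (adjusted p = 4.3e-06). Of 5 measured proneural and Id genes, 0 were higher and 3 lower in RNAseq. Among them Id3, which encodes an inhibitor of basic helix-loop-helix factors, fell by 0.96 (adjusted p = 2.5e-07). No other Hes or Hey gene was measured. Bhlhe40, a related repressor listed with them, had -0.48 (adjusted p = 0.018) in RNAseq, -1.23 (adjusted p = 3.7e-07) in RF and -0.74 (adjusted p = 0.023) in TE. Its RNAseq call was lost without untreated culture 2 (-0.36) or KCl culture 4 (-0.25), and its TE call without untreated culture 3 (-0.77) or KCl culture 5 (-0.20), with DESeq2 (-0.72), with filterByExpr (-0.73) and with no filter (-0.73).

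Of the markers listed above that passed the filter, 3 of 8 astrocyte genes were lower in RNAseq, where 15.1% of all measured transcripts were, and 4 were higher in RF, where 20.8% were. Of 6 radial glia and progenitor genes, 1 was higher (Pax6) and 2 were lower (Nes and Sox2) in RNAseq, against 17.9% and 15.1% of all.

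**Figure D4:**
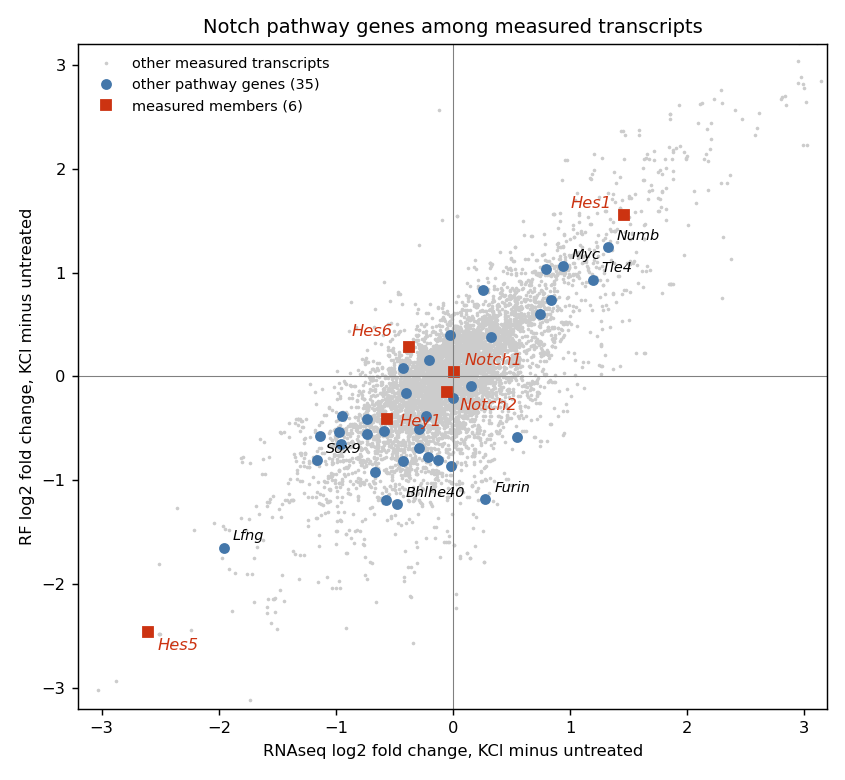
RNAseq and RF log2 fold changes, KCl minus untreated, of the 6 measured transcripts (red squares), 35 other pathway genes (blue circles) and all other measured transcripts (grey), of which 23 lie beyond the axis limit of 3.2. Hes5 and Lfng lie at the lower left and Hes1, Numb and Tle4 at the upper right, and Furin lies below the others at its RNAseq value.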

How the data were processed

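The authors trimmed reads with Trimmomatic (0.32), removed ribosomal RNA reads with STAR (2.3.1z8), aligned the rest with bowtie2 (2.2.2) to mouse transcripts without degenerate sequences, and deposited the counts of reads per transcript region from bedtools (2.20.1), raw and without normalization; the versions are from the submitters' processing notes. RNAseq libraries were made with an amplifying cDNA kit from total RNA, and RF libraries from the rest of the same lysate after RNase I digestion. Reads that map to several transcripts are counted on each, so isoforms share reads. The counts mark 4 regions by letters. The CDS, 5′UTR and 3′UTR were assigned by read shares and annotated lengths, and 1 region has no name in the sources used here.

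The 10 genes and all gene lists were chosen with earlier results of these data known. Of 22534 transcripts, 22172 (98.4%) were matched to GRCm38 (GENCODE M21 annotation). RNAseq values are reads on all regions and RF values reads on the CDS. The authors' removal of footprints near start and stop codons before TE was not repeated. Differences were fitted with the robust quasi-likelihood test of edgeR 4.0.16 (R 4.3.3) over the 7262 measured transcripts, with TMM within each assay and Benjamini-Hochberg adjustment. TE was the interaction of assay and treatment with the culture as a block. SEs are the absolute log2 fold change over the square root of F. The scripts were tested on simulated data. Tables were read with Python 3.11.15.

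RNAseq and RF libraries of 1 number come from 1 lysate, which pairs them by the protocol. The correlation of their deviations from group means was -0.073, -0.049, 0.063, 0.023 and 0.023 in cultures 1 to 5.

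Of several transcripts of a gene, the one with most RNAseq reads on average was used. Other pathway genes were named from the 4 of each group with the smallest RNAseq p, not all of which are named, and Aes was added for its TE call. Values of 1 listed gene are not reported here. Adjusted p-values are over all measured transcripts. Alternatives were DESeq2 1.42.0, library totals, TMM over all 10 libraries, filterByExpr, no filter beyond 1 read, no block, the longest CDS of a gene and leaving out each culture. RNAseq reads of the CDS only, and all alternatives for the other pathway genes, were chosen after the data were seen.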

Additional observations from a re-analysis of the deposited data

How the results depend on the processing

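Among the 10 genes, RNAseq called 3, RF 3 and TE 0 transcripts, beside the shares of all measured transcripts given above. RNAseq reads of the CDS only, chosen after the data were seen, left 1 RNAseq call (Hes1), since Hes5 has no such read and could not be fitted and Hey1 was no longer called. Of all 7247 transcripts fitted in this way, 887 were higher and 645 lower. RF called 5 with filterByExpr and 5 with no filter beyond 1 read, which test more transcripts and add Notch3 and Jag1, and 4 with library totals, which add Notch2. Of all transcripts, filterByExpr called 2819 of 16376 higher and 2511 lower, and no filter 2790 of 20864 higher and 2622 lower. Library totals called 1073 of 7262 higher and 2107 lower. RF called 2 with DESeq2, without Hey1, where 1228 of all 7262 were higher and 998 lower. Leaving out each culture gave 3 calls each time in RNAseq, 2 (without KCl culture 4) to 3 in RF and 0 each time in TE. For the other pathway genes, TE called 3, against 1 with DESeq2. Of all 7262 measured transcripts, TE called 111 higher and 310 lower in edgeR, and 34 higher and 140 lower with DESeq2. Each of the 3 calls was lost without KCl culture 5. Leaving out a KCl culture leaves 1 KCl library, and such fits called fewer of all measured transcripts in RNAseq, RF and TE. Calls lost in this way, here and above, are not read as particular to these genes. In the paired analysis, the TE fit without a replicate block called 0 of the 10 genes and 3 of the other pathway genes, as did the fit with it. Library totals moved the median log2 fold change of all measured transcripts to -0.099 in RNAseq and -0.14 in RF. Of the log2 fold changes of the 10 genes under alternatives, 275 moved by less than the spread between cultures and 12 by more, and no called one changed direction. The 275 include those with the longest CDS of a gene, which was the transcript already used, so they could not move. Few CDS footprints stand behind Hes5 and Dll1 in the shallow RF libraries.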

Other observations

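The genes whose levels were most like those of Hes5 and Hes1 were found among 4369 other measured genes, by Pearson's r of log2 normalized CPM over the 10 libraries after centring each assay. The points share cultures and treatment between assays, so r is a description of these libraries. For Hes5 they were Nop9 (r = 0.990), Arhgef4 (0.987), Acod1 (0.987), Elp2 (0.984) and Ints3 (0.980), with RNAseq log2 fold changes of -1.81, -1.40, -1.95, -0.82 and -0.58. For Hes1 they were Ip6k2 (r = 0.990), Crem (0.986), Polr1c (0.986), Dnajb1 (0.983) and Amotl2 (0.983), with RNAseq log2 fold changes of 1.63, 2.95, 1.10, 0.95 and 1.97.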
